A study of Mus musculus with 14 samples.

Results

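Every array of the series enters the comparison described here, 14 of 14, divided by whether the label says that the lung was mechanically ventilated. The ventilated side held 7 arrays, 4 labelled VALI and 3 labelled VILI PBEF+/-, and the unventilated side held 7 arrays, 4 labelled Control and 3 labelled PBEF+/-. The sides were formed from the sample titles alone. A model with the PBEF+/- label as a second factor gave the difference between ventilated and unventilated lungs averaged over both label states. All arrays measured total RNA of whole mouse lung.

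Control animals received PBS and were not ventilated. VALI animals were ventilated for 4 hours at a tidal volume that the sample labels give as 40 ml/kg and the series text as 30 ml/kg. PBEF+/- animals were not ventilated, and VILI PBEF+/- animals were ventilated for 4 hours, also at 40 ml/kg by the sample labels. The sample labels do not say whether PBEF+/- names a genotype or recombinant PBEF, the protein made from Nampt, which the series text says was instilled. Control, VALI and PBEF+/- animals were 18-22 weeks old and VILI PBEF+/- animals were 8-12 weeks old, so age and the response of VILI PBEF+/- cannot be told apart. Whether each array stands for its own animal is not stated, and p-values then describe only how much these samples vary, which may be technical.

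A ventilator that delivers large breaths stretches the alveolar wall beyond its normal range. Stretched epithelial and endothelial cells are known to switch on immediate early transcription factors and to release cytokines and chemokines that draw neutrophils from the blood into the lung. Oxidative stress, opening of epithelial and endothelial barriers and deposition of fibrin belong to the same injury.

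Lung identity was clear in all arrays. Sftpc, the surfactant protein of alveolar type II cells, read 15.38 to 15.70 on the log2 scale of the deposited values, and Scgb1a1, the secretory protein of airway club cells, read 15.77 to 16.08. All 12 heart muscle markers were above the array median in 14 of 14 arrays, with Myh6, the atrial and ventricular myosin of the mouse heart, at 13.18 to 14.17. In these bulk samples, fewer cells of a type and less RNA per cell cannot be told apart.

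One ventilated array, VALI replicate 4, and one unventilated array, PBEF+/- replicate 3, departed from their sides and are described before the results. Il6, which encodes the cytokine interleukin-6, read 2.09, 2.13, 2.15 and 2.45 in Control and 2.10 and 2.56 in PBEF+/- replicates 1 and 2, but 10.87 in PBEF+/- replicate 3. It read 9.60, 9.84 and 9.85 in VALI replicates 1 to 3 and 12.75, 12.33 and 10.32 in VILI PBEF+/-, but 2.78 in VALI replicate 4. PBEF+/- replicate 3 thus lay inside the range of the ventilated arrays, and VALI replicate 4 lay just above the unventilated ones. VALI replicate 4 was nearer to the mean of its own side than to the other for 26.74% of the genes tested, and PBEF+/- replicate 3 for 21.92%. For the other 12 arrays this share was 60.21% to 81.23%. Both arrays are kept as labelled in what follows, and the counts of the gene lists and the differences of the leading genes are given again without them. Since they were recognised by their values, p-values without them depend on that choice.

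Xist, the transcript of the inactive X chromosome in females, was above the Y-linked Eif2s3y in 6 of 7 ventilated and 4 of 7 unventilated arrays. Without the 2 discordant arrays, this female pattern held in 6 of 6 ventilated and 3 of 6 unventilated arrays. VALI replicate 4 was the only ventilated array of the male pattern, with Xist at 2.64 against 13.44 to 13.88 in the other 6. Sex is therefore unevenly spread over the sides.

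As labelled, 1063 of 11360 genes differed between ventilated and unventilated lungs (limma, adjusted p under 0.05), which is 9.36% of the genes tested. Of these, 487 were higher (4.29%) and 576 were lower (5.07%), while 3640 genes had an unadjusted p under 0.05. Among called genes, the largest rises were in Il6, the skeletal muscle actin Acta1, the interleukin-1 decoy receptor Il1r2, the AP-1 subunit Fosl1 and the neutrophil collagenase Mmp8. Their largest falls were in the cholecystokinin receptor Cckar and the cilium-associated Dcdc2a. Changes of at least 2-fold were mostly rises, 198 against 81 falls. All 1063 called genes had the same sign in VALI minus Control and in VILI PBEF+/- minus PBEF+/-. Genes were called on the average of these responses, so a shared sign was largely set by the calling and is no separate result. The interaction, which is the difference between those responses, called 0 genes in limma, with 634 at an unadjusted p under 0.05 and a smallest adjusted p of 0.508.

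The count of called genes rested on narrow margins. The smallest adjusted p was 0.0193 as labelled. Leaving out VALI replicate 1 or VILI PBEF+/- replicate 1 left 0 called genes, with 2930 and 2936 at an unadjusted p under 0.05. All 127 called genes given with values here lost their call without either array, and all 127 kept call and direction without the discordant arrays. The count was 68 without Control replicate 2, 61 without VALI replicate 3, 79 without VALI replicate 2 and 85 without PBEF+/- replicate 1. It was 155 without VILI PBEF+/- replicate 2, 244 without Control replicate 4, 454 without PBEF+/- replicate 2, 485 and 552 when Control replicates 3 and 1 were left out. It rose to 2704 without PBEF+/- replicate 3 and to 2832 without VALI replicate 4, and stayed at 1101 without VILI PBEF+/- replicate 3. With both discordant arrays left out, 4213 genes were called, 1518 higher (13.4%) and 2695 lower (23.7%). That set held 1062 of the 1063 genes called as labelled, all in the same direction. With the sex pattern as a covariate, 221 genes were called on 14 arrays and 2759 without the discordant arrays. Among animals of 18-22 weeks alone, 0 genes were called on 11 arrays and 1743 without the discordant arrays.

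**Figure D1:**
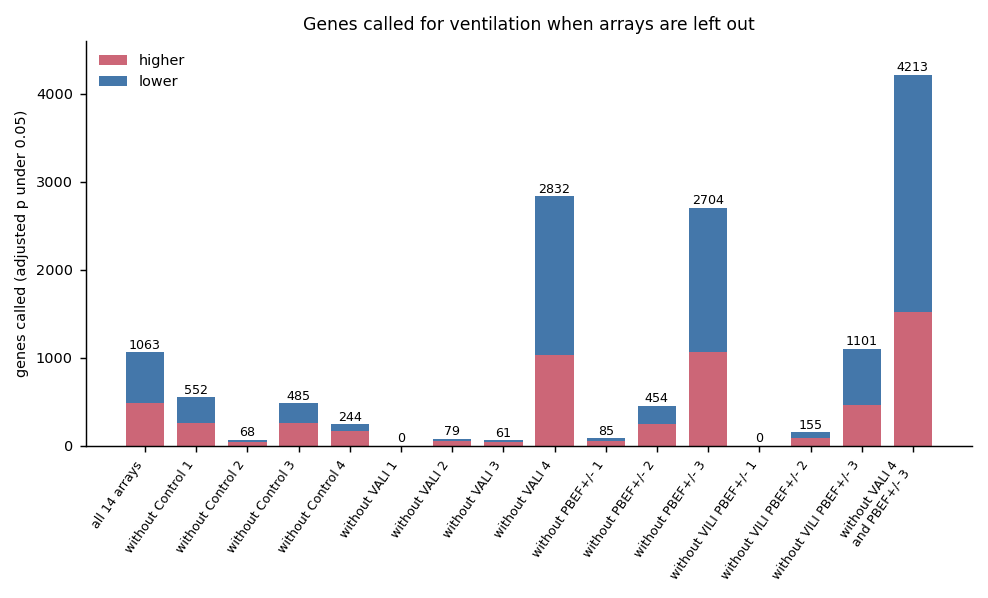
Bars give the number of genes called for ventilation (limma, adjusted p under 0.05, higher in red and lower in blue, y axis from 0) with all 14 arrays, without each array in turn, and without VALI replicate 4 and PBEF+/- replicate 3 together. The count is 1063 with all arrays, 0 without VALI replicate 1 or VILI PBEF+/- replicate 1, and 4213 without both discordant arrays.

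**Figure D2:**
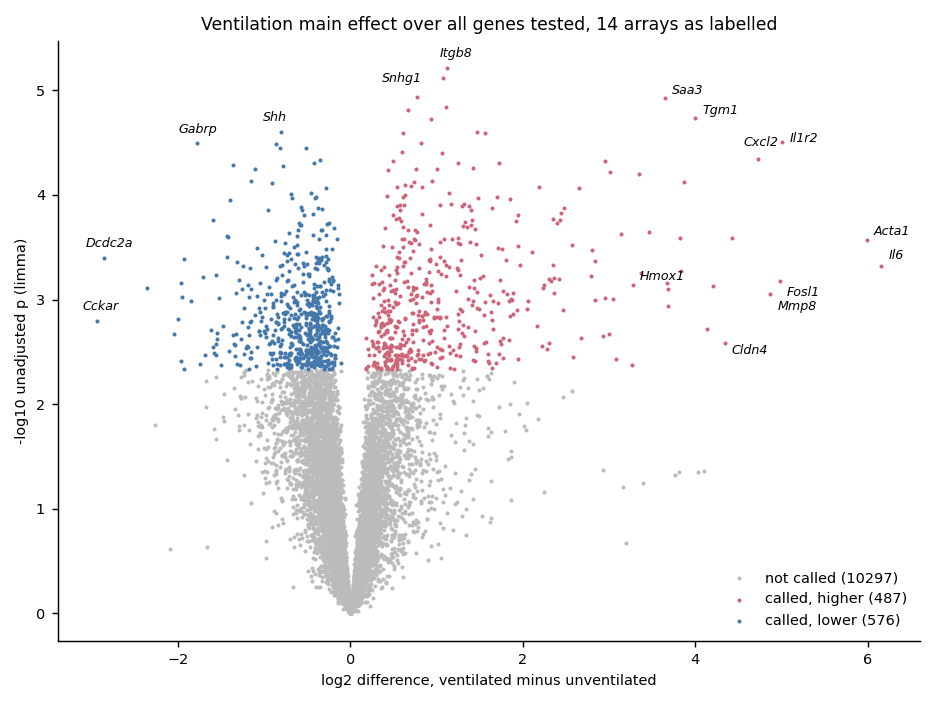
Each point is one of the 11360 genes tested, with the log2 difference between ventilated and unventilated lungs on the x axis and −log10 of the unadjusted limma p on the y axis, for 14 arrays as labelled. Called genes are red (487 higher) and blue (576 lower), and the rises reach further, to 6.16 for Il6, than the falls, to -2.94 for Cckar.

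Cytokines and chemokines held some of the largest rises. Of 12 tested genes of this list 8 were called higher and 0 lower, against 4.29% of all genes called higher, and the median log2 difference was 2.46 against -0.05 over all genes tested. Without the discordant arrays 11 of the 12 were called higher, against 13.4% of all genes. These counts and the median depend in part on the filter on low values, which kept genes above the array median in at least 3 arrays. Of the 12 genes, 7 were above it in fewer than 3 unventilated arrays (Il6, Cxcl2, Cxcl3, Ccl2, Ccl3, Ccl7 and Lif) and passed through their high ventilated values, and 6 of these 7 were among the 8 called. The 5 genes that passed on both sides had 2 calls, Cxcl1 and Il1b. With no filter, 6 of all 19 genes of the list were called higher, against 0.857% of all 18194 genes, and the median was 1.49. Il6 rose by 6.16 ± 1.36 (log2 difference ± SE, adjusted p = 0.0256), and by 8.34 ± 0.42 without them. Il1a, Tnf, Ccl4, Ccl20, Csf3, Osm and Il11 were on the list but did not pass the filter on low values.

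Among the neutrophil chemokines, Cxcl2 read 2.44, 2.62 and 8.68 on the unventilated side and 5.23, 8.37 and 11.11 on the ventilated side (lowest, median and highest of 7 arrays each). It rose by 4.72 ± 0.81 (adjusted p = 0.0193), and by 5.86 without the discordant arrays. PBEF+/- replicate 3 held the 8.68, and the next unventilated array read 3.40, below all 7 ventilated arrays. Cxcl1, a second ligand of the neutrophil receptor Cxcr2, ran from 4.89 over 5.75 to 9.67 in unventilated and from 7.18 over 9.55 to 12.09 in ventilated lungs and rose by 3.35 ± 0.59 (adjusted p = 0.02), and by 4.06 without those arrays. PBEF+/- replicate 3 again held the high unventilated value, and the other 6 lay at 5.97 or below. Cxcl1 and Cxcl2 in VALI replicate 4, at 7.18 and 5.23, were the lowest of the ventilated side but above those 6 unventilated arrays. Lif, an interleukin-6 family cytokine, rose by 2.34 ± 0.46 (adjusted p = 0.0218) and Il1b, the inflammasome-processed interleukin-1, by 2.57 ± 0.54 (adjusted p = 0.0237).

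The promoter letters of the cytokines that rose were examined because NF-kB, the transcription factor activated by cytokine receptors, is known to bind a short motif of the form GGGNNTTTC. Promoters were windows of 300 bases from RefSeq on GRCm38.p6, 250 before to 50 after a gene's start, searched on both strands. The motif occurred in 4 of the 9 cytokine promoters that had a window, those of Il6, Cxcl1, Cxcl2 and Cxcl3, against 4.18% of the 11826 windows of all tested genes. In the list of NF-kB inhibitors and targets it was in 5 of 14 windows, those of 3 of 11 genes. The letters searched for other lists were not always above the share over all genes. The AP-1 motif TGANTCA was in 0 of 21 windows of the immediate early factors, below the 5.31% of all windows. The NRF2 core TGACNNNGC was in 3 of 12 windows of the oxidative stress list, above the 14.1% of all. The E-box CACGTG was in 3 of 12 windows of ribosome biogenesis genes, above the 9.75% of all. A match describes letters and is not a measured binding site. The stretches below hold 1 motif of each of these genes in capitals and 20 bases on each side, upstream of the start and on the gene's strand. They lie at chr5:30013050-30013098 (Il6), chr5:90891154-90891202 (Cxcl1), chr5:90903782-90903830 (Cxcl2) and chr5:90786008-90786056 (Cxcl3).
Il6: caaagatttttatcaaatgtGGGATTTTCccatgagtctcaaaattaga
Cxcl1: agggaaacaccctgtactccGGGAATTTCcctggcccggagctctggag
Cxcl2: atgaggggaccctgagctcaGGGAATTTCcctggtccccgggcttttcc
Cxcl3: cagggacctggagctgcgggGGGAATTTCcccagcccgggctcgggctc
The motif letters were identical in the 3 Cxcl genes, which lie near each other on chromosome 5. The motif began 71 bases before the start in Cxcl1, 73 in Cxcl3, 97 in Cxcl2 and 44 in Il6. Over all called genes, the motif was in 6.84% of the 453 windows of genes called higher and in 3.51% of the 598 windows of genes called lower. The AP-1 letters were in 9.05% and 3.85% of these windows, the NRF2 core in 18.8% and 11.4%, and the E-box in 12.1% and 5.69%. The AP-1 and NRF2 letters both begin with TGA and can overlap, so 1 stretch can count for both, and the shares were not tested.

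**Figure D3:**
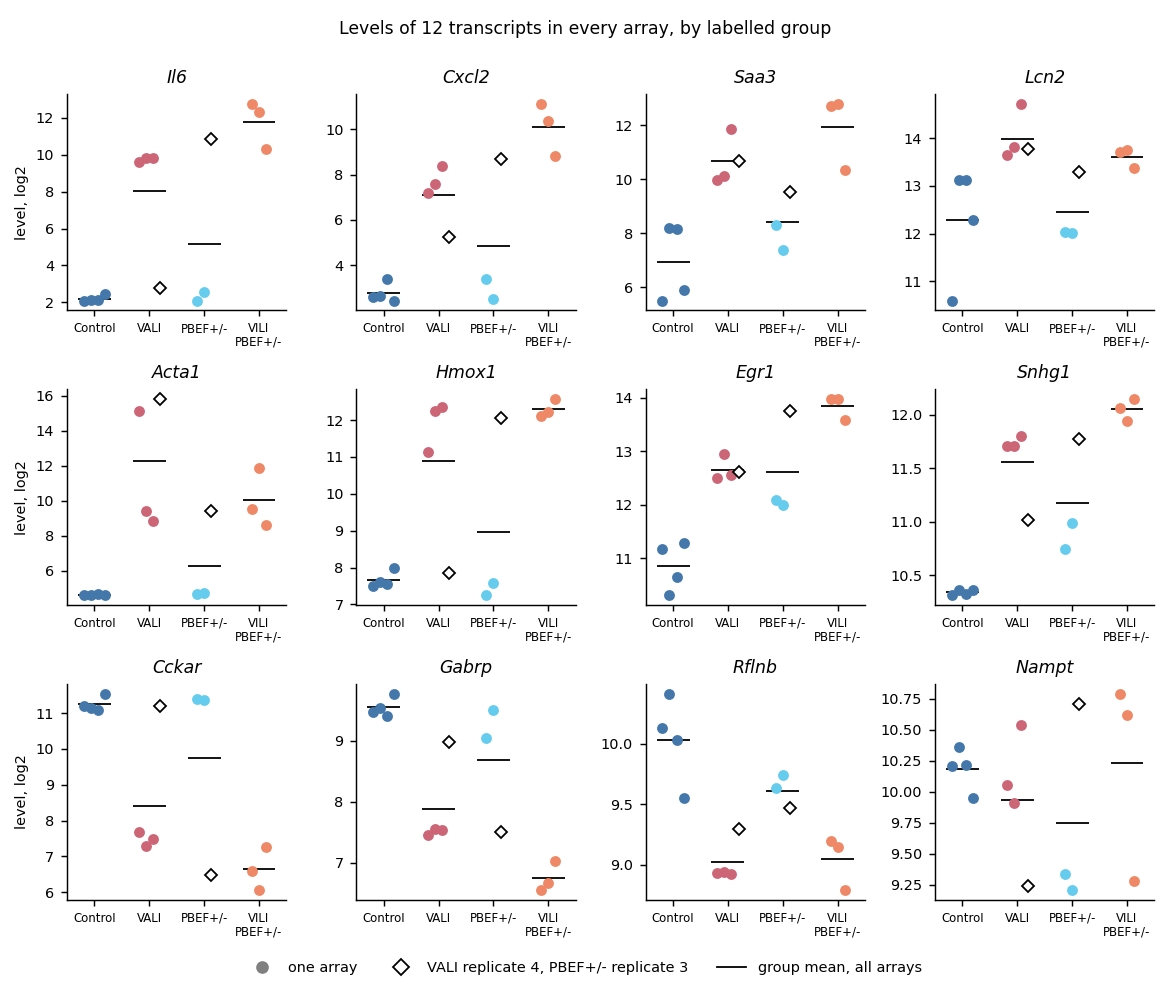
Each panel plots the log2 level of 1 transcript in all 14 arrays by labelled group, with filled circles for arrays, open diamonds for VALI replicate 4 and PBEF+/- replicate 3, and lines for group means. Il6, Hmox1 and Cckar place both diamonds with the opposite side, whereas Saa3, Lcn2 and Rflnb keep every ventilated array on one side of every unventilated array and Nampt shows no such split.

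The interleukin-1 list, which holds receptors and antagonists, was called higher in 2 of 6 as labelled and 5 of 6 without the discordant arrays, against 4.29% and 13.4% of all genes. Il1r2 passed the filter on low values only through its ventilated values. With no filter, 1 of 6 was called higher, against 0.857% of all genes. Il1r2, which binds interleukin-1 without signalling and is abundant on neutrophils, read 2.69, 3.38 and 9.19 in unventilated and 6.55, 9.42 and 9.996 in ventilated lungs (lowest, median, highest). It rose by 5.01 ± 0.83 (adjusted p = 0.0193), and by 6.27 without the discordant arrays. PBEF+/- replicate 3 was the unventilated array at 9.19, and the other 6 lay at 3.95 or below. Il1rn, the interleukin-1 receptor antagonist, rose by 1.77 ± 0.51 (adjusted p = 0.0448).

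Targets of interleukin-6 and STAT3 were called in 9 of 13, 8 higher and 1 lower, against 4.29% and 5.07% of all genes. Without the discordant arrays 10 were called, 9 higher and 1 lower, against 13.4% and 23.7%. Saa3, an acute phase apolipoprotein made in the lung, read 5.50, 8.15 and 9.52 in unventilated and 9.96, 10.68 and 12.79 in ventilated lungs. It rose by 3.65 ± 0.55 (adjusted p = 0.0193), and by 3.88 without them. No ventilated array was as low as any unventilated array, and VALI replicate 4 read 10.68, the median of its side. Socs3, the feedback inhibitor of this pathway, rose by 2.44 ± 0.47, Bcl3, a nuclear partner of NF-kB, by 2.39 ± 0.48, and Fgl2, a prothrombinase, by 1.24 ± 0.26 (adjusted p = 0.0211, 0.0218 and 0.0231). Hp, haptoglobin, which is also on the club cell list, was the member that fell, by 0.39 on the log2 scale (adjusted p = 0.0302).

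NF-kB inhibitors and targets were called higher in 9 of 13 tested genes, against 4.29% of all genes, with 0 lower and a median of 0.92. Without the discordant arrays 11 were called higher, against 13.4%. Ptgs2, the inducible cyclooxygenase, read 8.10, 8.97 and 12.43 in unventilated and 9.96, 12.77 and 13.75 in ventilated lungs and rose by 2.95 ± 0.51 (adjusted p = 0.0193), and by 3.70 without them. Tnfaip2 rose by 1.48 ± 0.28, Nfkbiz, an inducible IkB-like cofactor, by 1.39 ± 0.29 and Zc3h12a, an RNase that degrades cytokine transcripts, by 1.46 ± 0.35. All 13 had a positive difference.

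Immediate early transcription factors, the first genes switched on by stretch or growth factors, were called higher in 11 of 20 and lower in 2, against 4.29% and 5.07% of all genes. Without the discordant arrays 14 were higher and 2 lower, against 13.4% and 23.7%. Egr1 read 10.31, 11.29 and 13.75 in unventilated and 12.50, 12.94 and 13.98 in ventilated lungs and rose by 1.56 ± 0.25 (adjusted p = 0.0193), and by 1.81 without them. The 13.75 belonged to PBEF+/- replicate 3, and the other 6 unventilated arrays lay at 12.08 or below, under all 7 ventilated arrays. Junb rose by 2.18 ± 0.40, Fos by 1.32 ± 0.25 and Egr2 by 1.92 ± 0.38 (adjusted p = 0.0204, 0.0205 and 0.0218). Fosl1 rose by 4.98 ± 1.14 (adjusted p = 0.0281), from 2.04 to 3.33 in 6 unventilated arrays to 7.67 to 10.52 in 6 ventilated arrays. VALI replicate 4 read 2.02 and PBEF+/- replicate 3 read 9.21 for Fosl1, and the rise was 6.83 without them. Fosl1 passed the filter on low values only through its ventilated values. With no filter, 6 of the 20 genes of the list were called higher and 0 lower, against 0.857% of all genes called higher. Klf2 and Klf4, flow-responsive factors of the endothelium, were the 2 members that fell, by 1.23 and 0.63 on the log2 scale (adjusted p = 0.0436 and 0.0352).

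EGF receptor ligands and stretch-responsive genes were called higher in part. Ereg, epiregulin, rose by 3.83 ± 0.79 (adjusted p = 0.0231), and Hbegf, the membrane-anchored heparin-binding ligand, by 1.06 ± 0.30 (adjusted p = 0.0426), which makes 2 of 4 tested ligands. Ereg passed the filter on low values only through its ventilated values. With no filter, 1 of 7 ligands with a probe set was called higher, against 0.857% of all genes. Ccn1, a matricellular protein induced by YAP, rose by 1.06 ± 0.18 (adjusted p = 0.0193), and Ankrd1, a further YAP target, by 0.77 ± 0.20 (adjusted p = 0.0364). Plaur, the urokinase receptor, rose by 1.55 ± 0.39 (adjusted p = 0.0333). Of 11 tested genes of the stretch and YAP list 4 were called higher and 0 lower, against 4.29% and 5.07% of all genes. Without the discordant arrays 7 were higher and 2 lower, against 13.4% and 23.7%, and the ligands stayed at 2 of 4. Feedback inhibitors of MAP kinases and G proteins were called higher in 4 of 12 (7 without the discordant arrays), among them Rgs16 (1.65 ± 0.32), Spry4 (1.38 ± 0.32) and Spred1 (0.41 ± 0.11). Rgs16 passed the filter only through its ventilated values, and with no filter 1 of these 12 was called higher.

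Oxidative stress genes driven by NRF2 were called higher in 6 of 12, against 4.29% of all genes, with 0 lower and a median of 0.99. Hmox1, heme oxygenase 1, read 7.24, 7.57 and 12.05 in unventilated and 7.84, 12.23 and 12.57 in ventilated lungs and rose by 3.28 ± 0.76 (adjusted p = 0.0285). Both extremes were the discordant arrays, since PBEF+/- replicate 3 read 12.05 and VALI replicate 4 read 7.84, within the range of 7.24 to 8.00 of the other unventilated arrays. Slc7a11, the cystine importer for glutathione synthesis, rose by 3.68 ± 0.85, Srxn1, sulfiredoxin, by 2.80 ± 0.59, and Osgin1 by 1.95 ± 0.38. Without the discordant arrays 8 of the 12 were called higher, against 13.4% of all genes, with 4.51 for Hmox1 and 5.06 for Slc7a11. Slc7a11 passed the filter on low values only through its ventilated values. With no filter, 2 of 12 genes of the list were called higher, against 0.857% of all genes.

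Metallothioneins, small proteins that bind zinc and copper, were also among the called genes. Mt2 read 9.11, 10.17 and 13.98 in unventilated and 10.73, 13.65 and 14.21 in ventilated lungs and rose by 2.83 ± 0.62 (adjusted p = 0.0256), and by 3.81 without the discordant arrays. Mt1 rose by 2.25 ± 0.52 and the zinc importer Slc39a14 by 1.45 ± 0.42 (adjusted p = 0.0285 and 0.0458), 3 of the 5 tested genes of the list, against 4.29% of all genes called higher. The same number was called higher without those arrays, and 1 was called lower, against 13.4% and 23.7% of all genes. Heat shock chaperones were called in 0 of 11 in limma, although all 11 differences were positive and 4 had an unadjusted p under 0.05. Hspa1b, an inducible Hsp70, differed by 1.60 ± 0.61 (adjusted p = 0.0948), with Control replicate 1 at 14.20 against 12.10 to 12.23 in the other Control arrays. Without the discordant arrays 4 of these 11 were called higher, against 13.4% of all genes.

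Part of the genes of amino acid supply and of ribosome making were called higher. The share over all genes was 4.29% higher and 5.07% lower, and 13.4% and 23.7% without the discordant arrays. Of 14 tested genes of the ATF4 and unfolded protein response 6 were called higher and 0 lower, including Psat1, an enzyme of serine synthesis (1.72 ± 0.30, adjusted p = 0.0193), Atf4 itself (0.92 ± 0.20), Asns, asparagine synthetase (0.89 ± 0.21), and the stress sensor Sesn2 (1.27 ± 0.35). The count of this list was 7 without the discordant arrays, with 2.13 for Psat1. Amino acid transport and tRNA charging was called higher in 6 of 13 and lower in 0 (10 and 1 without those arrays), with Slc7a5, a carrier of large neutral amino acids, at 3.05 ± 0.73 and Eprs, a tRNA synthetase, at 0.54 ± 0.12. Slc7a11, also among the 6, passed the filter only through its ventilated values, and with no filter 1 of these 13 was called higher. Ribosome biogenesis was called higher in 9 of 16, and all 16 differences were positive with a median of 0.53. Among them were the small subunit processome protein Wdr43 (0.76 ± 0.13), Nop56 (0.67 ± 0.14) and Gar1 (0.54 ± 0.12), both parts of small nucleolar ribonucleoproteins, and Noc4l (0.53 ± 0.12). Without the discordant arrays 15 of the 16 were called higher.

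Snhg1, a noncoding host transcript of small nucleolar RNAs, which guide the modification of ribosomal RNA, had one of the smallest p-values. It read 10.31, 10.36 and 11.77 in unventilated and 11.02, 11.80 and 12.15 in ventilated lungs and rose by 1.07 ± 0.16 (adjusted p = 0.0193), and by 1.31 without the discordant arrays. The 4 Control arrays lay within 10.31 to 10.36, and VALI replicate 4 was the lowest ventilated array at 11.02. Snhg6 rose by 0.70 ± 0.13, Snhg12 by 0.46 ± 0.12 and Snhg5 by 0.60 ± 0.17. With Snhg1 these were 4 of the 8 tested host genes, against 4.29% of all genes called higher. Without the discordant arrays 5 were called higher, against 13.4%. Riok2, a kinase of small ribosomal subunit maturation, rose by 0.77 ± 0.12 (adjusted p = 0.0193).

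Coagulation genes were called higher in 4 of 9 and lower in 0, against 4.29% and 5.07% of all genes. Without the discordant arrays 6 were higher and 1 lower, against 13.4% and 23.7%. Procr, the endothelial protein C receptor, read 7.27, 7.53 and 8.25 in unventilated and 8.16, 8.80 and 9.32 in ventilated lungs and rose by 1.10 ± 0.17 (adjusted p = 0.0193), and by 1.27 without them. The sides overlapped only in that PBEF+/- replicate 3, at 8.25, exceeded VALI replicate 4, at 8.16. F10, coagulation factor X, rose by 1.27 ± 0.27 and F3, tissue factor, by 1.73 ± 0.40 (adjusted p = 0.0235 and 0.0281). Thbd, thrombomodulin, differed by -0.31 ± 0.09 (adjusted p = 0.0532).

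Genes of epithelial injury and matrix turnover held some of the largest rises. Tgm1, the transglutaminase of cornified epithelia, read 2.66, 3.53 and 7.44 in unventilated and 6.62, 8.01 and 8.86 in ventilated lungs and rose by 4.00 ± 0.63 (adjusted p = 0.0193), and by 4.82 without the discordant arrays. Cldn4, a tight junction claudin, rose by 4.34 ± 1.19 (adjusted p = 0.0409), Sprr1a, a cornified envelope precursor, by 2.99 ± 0.80, and the keratin Krt18 by 1.29 ± 0.34. These were 3 of the 11 tested genes of the tight junction and injured epithelium list, to which Tgm1 does not belong, against 4.29% of all genes called higher. Without the discordant arrays 5 were called higher and 1 lower, against 13.4% and 23.7% of all genes. Tgm1, Cldn4 and Sprr1a were above the array median in fewer than 3 unventilated arrays, so that they passed the filter through their high values. With no filter, 0 of the 11 genes of the list were called higher, against 0.857% of all genes.

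Matrix proteases and inhibitors were called higher in 4 of 11, against 4.29% of all genes, and in 7 without the discordant arrays, against 13.4%. Mmp8, Adamts4 and Has1, 3 of those 4, passed the filter only through their ventilated values. With no filter, 0 of 13 genes of the list were called higher, against 0.857% of all genes. Mmp8 rose by 4.87 ± 1.16 (adjusted p = 0.0292), Adamts4, an aggrecanase, by 3.68 ± 0.90, Has1, a hyaluronan synthase, by 4.13 ± 1.08, and Timp1, the metalloproteinase inhibitor, by 2.84 ± 0.69. Mmp8 read 2.96 in VALI replicate 4 and 9.68 in PBEF+/- replicate 3, each within the range of the opposite side, and its rise was 6.76 without them. Doc2b, a calcium sensor of vesicle fusion, and the transcript G530011O06Rik were also among the 12 largest rises of called genes, at 4.20 ± 0.98 and 4.43 ± 0.91. Both passed the filter only through their ventilated values. G530011O06Rik read 7.91 in VALI replicate 4, above the 4.74 of the highest unventilated array other than PBEF+/- replicate 3.

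Several lists with few calls as labelled had more without the discordant arrays, as did all genes tested. Over all genes the share called higher went from 4.29% to 13.4%, and the share called lower from 5.07% to 23.7%. Growth arrest and p53 targets were called higher in 2 of 10, Gadd45a (1.85 ± 0.35) and Plk3 (1.81 ± 0.43), and in 7 of 10 without those arrays. Polyamine and arginine genes were called higher in 2 of 7, the acetyltransferase Sat1 (0.70 ± 0.15) and the ornithine decarboxylase Odc1 (0.76 ± 0.18), against 4 higher and 1 lower without the arrays. The glucocorticoid response was called in 1 of 12, the lipocalin Lcn2, which belongs to the STAT3 list as well, with a median of 0.47. When the discordant arrays were left out, 7 of these 12 were called higher and 1 lower, with a median of 0.74, against 13.4% and 23.7% of all genes. Clock genes were called in 2 of 13, Bhlhe40 higher (1.02 ± 0.23) and Nr1d1 lower, by 0.78 on the log2 scale. Without the discordant arrays 1 was higher and 3 lower, and the latter is close to the share over all genes. Interferon-stimulated genes were called in 1 of 10, Ifit2, which fell by 0.64, and 4 of 10 were called lower without the arrays. Cell cycle genes were called in 0 of 9 in limma, with 1 at an unadjusted p under 0.05, and in 1 each way without the arrays.

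Nampt, the gene of PBEF and the rate-limiting enzyme of NAD salvage, was not called. It read 9.21, 10.21 and 10.71 in unventilated and 9.25, 10.05 and 10.79 in ventilated lungs and differed by 0.07 ± 0.30 (adjusted p = 0.89), and by 0.39 (adjusted p = 0.263) without the discordant arrays. Of 11 tested genes of NAD biosynthesis and sirtuins 1 was called, Bst1, a cyclic ADP-ribose synthase (0.92 ± 0.26, adjusted p = 0.0436). Without those arrays 1 was called higher and 2 lower, against 13.4% and 23.7% of all genes.

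**Figure D4:**
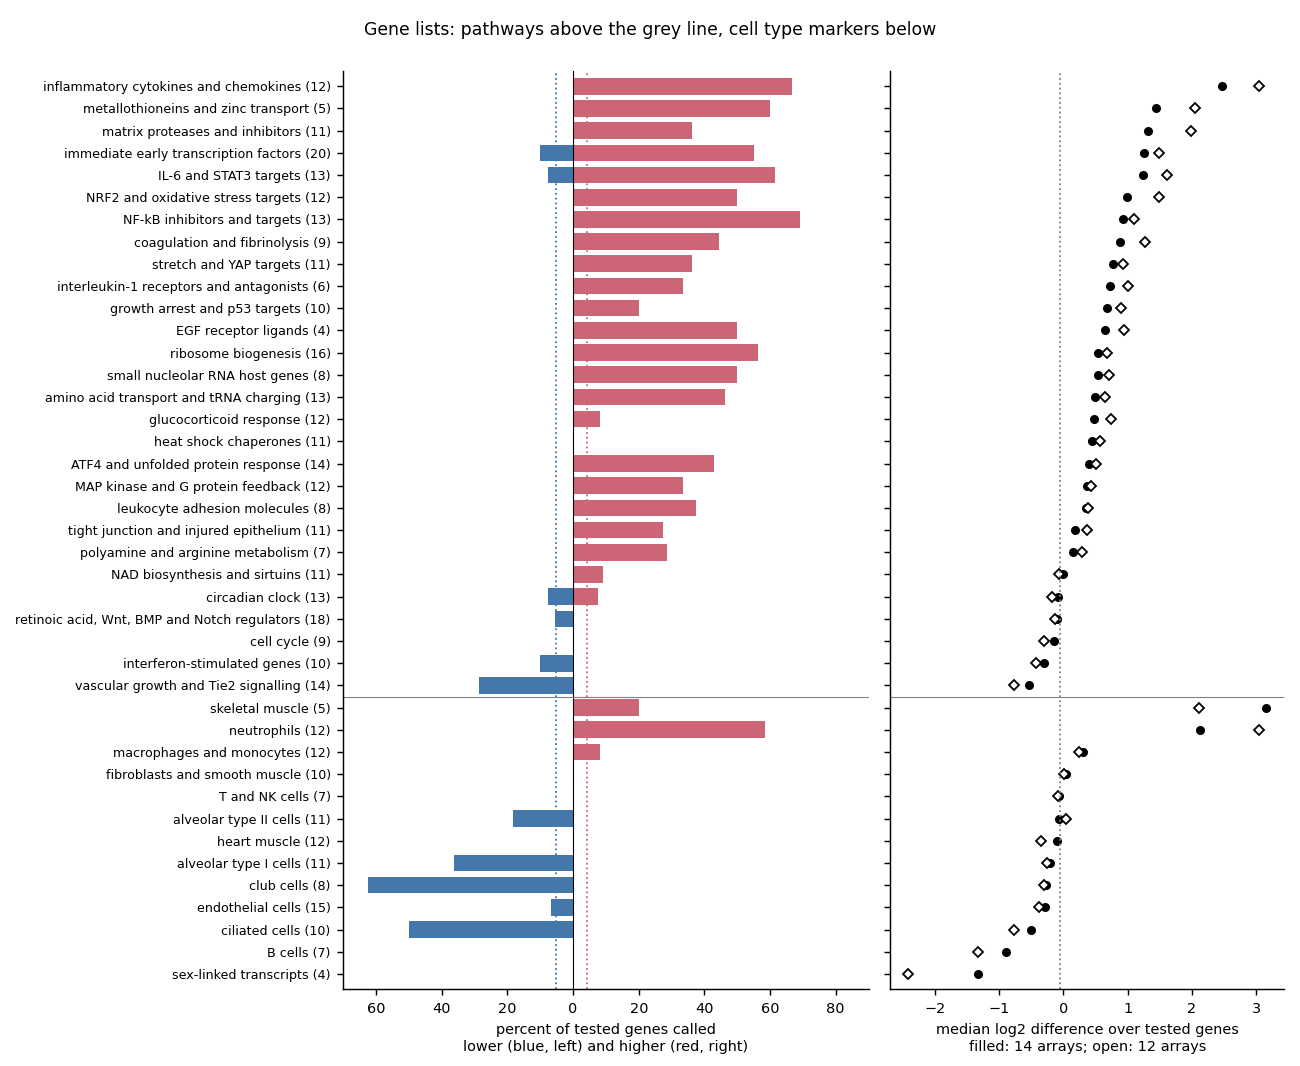
Left, the percentage of tested genes in each list (number in parentheses) called higher (red) or lower (blue), with dotted lines at 4.29% and 5.07%, the shares over all genes. Right, the median log2 difference of each list with 14 arrays (filled) and without VALI replicate 4 and PBEF+/- replicate 3 (open). Cytokines (2.46) and neutrophil markers (2.12) lie above the median over all genes (-0.05), in part through the filter on low values, and ciliated cell markers (-0.50) and vascular genes (-0.53) lie below it.

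Neutrophil markers were called higher in 7 of 12, against 4.29% of all genes, with a median of 2.12. Without the discordant arrays 10 of 12 were called higher, against 13.4%. Il1r2, Mmp8 and Clec4e passed the filter only through their ventilated values and were 3 of the 7, while 4 of the 9 markers that passed on both sides were called higher. With no filter, 2 of 13 markers with a probe set were called higher, against 0.857% of all genes, and the median was 2.06. Clec4e, a pattern receptor of myeloid cells, rose by 3.87 ± 0.70 (adjusted p = 0.0204), Clec4d by 3.37 ± 0.76 and Csf3r, the receptor of granulocyte colony-stimulating factor, by 2.23 ± 0.52. The mean level of the 12 markers was 9.31 to 10.10 in VALI replicates 1 to 3 and 9.57 to 9.88 in VILI PBEF+/-, against 5.68 to 6.78 in 6 unventilated arrays. It was 6.53 in VALI replicate 4, within the unventilated range, and 9.50 in PBEF+/- replicate 3. S100a8, a calgranulin that makes up much of neutrophil protein, differed by 2.05 ± 0.68 (adjusted p = 0.0671) and by 3.07 without the discordant arrays. The part of these cells in the rises of the cytokine, STAT3 and matrix lists was not tested.

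Macrophage and monocyte markers were called in 1 of 12, the lipopolysaccharide co-receptor Cd14 (1.30 ± 0.26, adjusted p = 0.0218), and markers of T and NK cells in 0 of 7 in limma, with 3 at an unadjusted p under 0.05. The counts without the discordant arrays were 3 higher and 2 lower for the first list and 1 higher and 2 lower for the second. Over all genes 13.4% were then called higher and 23.7% lower. B cell markers were called in 0 of 7, with 4 at an unadjusted p under 0.05 and 7 of 7 negative, and 7 of 7 were called lower without the discordant arrays. Their mean level was 5.88 to 6.66 in 6 ventilated arrays and 7.05 to 8.04 in 6 unventilated arrays, with 8.69 in VALI replicate 4, the highest of all, and 6.85 in PBEF+/- replicate 3. Cd79b, a B cell receptor subunit, differed by -0.95 ± 0.32 (adjusted p = 0.0702).

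Leukocyte adhesion molecules were called higher in 3 of 8, against 4.29% of all genes, and in 5 without the discordant arrays, against 13.4%. Itgb8, an integrin subunit that activates latent TGF-beta, read 5.61, 6.08 and 6.77 in unventilated and 6.81, 7.17 and 7.67 in ventilated lungs and rose by 1.12 ± 0.16 (adjusted p = 0.0193), and by 1.20 without them. It had the smallest p of all genes higher, and its 7 ventilated arrays lay above its 7 unventilated arrays by a narrow gap. Selp, P-selectin of activated endothelium and platelets, rose by 2.48 ± 0.48 and Selplg, its leukocyte ligand, by 0.39 ± 0.09 (adjusted p = 0.0205 and 0.0287).

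Some vascular genes were lower. Of 14 tested genes of vascular growth and Tie2 signalling 4 were called lower and 0 higher, against 5.07% of all genes called lower. When the discordant arrays were left out, 11 were called lower and 1 higher, against 23.7% and 13.4% of all genes. Tek, the Tie2 receptor that keeps endothelium quiescent, read 12.53, 13.33 and 13.60 in unventilated and 12.33, 12.51 and 13.21 in ventilated lungs and fell by 0.65 on the log2 scale (adjusted p = 0.0239), and by 0.86 without them. Aplnr, the apelin receptor, fell by 1.05 and its ligand Apln by 0.45 (adjusted p = 0.0285 and 0.0422). Klf2 read 11.24 to 12.51 in 6 ventilated arrays and 13.43 in VALI replicate 4. Endothelial markers as a whole were called in 1 of 15, again Tek, with a median of -0.29. Without the discordant arrays 6 were called lower and 1 higher, against 23.7% and 13.4% of all genes. Thsd1, an endothelial membrane protein, fell by 0.87 (adjusted p = 0.0193).

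Part of the markers of both main cell types of the conducting airway were called lower. Club cell markers were called lower in 5 of 8, against 5.07% of all genes, and 1 of the 8 had a positive difference. Without the discordant arrays 6 of 8 were called lower, against 23.7%. Gabrp, a GABA receptor subunit on this list, read 7.50, 9.47 and 9.77 in unventilated and 6.55, 7.45 and 8.98 in ventilated lungs and fell by 1.78 on the log2 scale (adjusted p = 0.0193), and by 2.24 without them. Its level in VALI replicate 4 was 8.98, and the other 6 ventilated arrays lay at 7.55 or below. Cyp2f2, the club cell cytochrome P450, fell by 0.51, Scgb3a2 by 0.40 and Scgb1a1 by 0.16 (adjusted p = 0.0193, 0.0205 and 0.0231). Scgb1a1 was near the top of the scale in every array, and its 7 ventilated arrays, 15.77 to 15.99, lay below its 7 unventilated arrays, 16.00 to 16.08.

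Ciliated cell markers were called lower in 5 of 10, against 5.07% of all genes, and all 10 differences were negative with a median of -0.50. Dynlrb2, a dynein light chain, read 11.02, 11.86 and 12.18 in unventilated and 10.66, 10.91 and 11.88 in ventilated lungs and fell by 0.73 (adjusted p = 0.0312), and by 0.99 without the discordant arrays. Tppp3 fell by 0.39, the outer arm dynein Dnah5 by 0.67 and Cfap126 by 0.64. Without those arrays 8 of the 10 were called lower, against 23.7% of all genes. As labelled, 3 of the 8 markers that passed the filter on low values on both sides were called lower. The other called markers, Dnah5 among them, were above the array median in fewer than 3 ventilated arrays. They passed the filter through their high unventilated values. With no filter, 0 of the 10 markers were called lower, against 110 of all 18194 genes.

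Alveolar type I markers were called lower in 4 of 11, with Cav1, the coat protein of caveolae, falling by 0.22, Emp2 by 0.25, Rtkn2 by 0.82 and Ager, the receptor for advanced glycation products, by 0.23 (adjusted p = 0.0241 to 0.0467). As labelled 5.07% of all genes were called lower. Without the discordant arrays 6 of 11 were called lower, against 23.7% of all genes. Type II markers were called lower in 2 of 11, Sftpc by 0.15 and the surfactant lipid enzyme Lpcat1 by 0.44. The same number, 2 of 11, was called lower without those arrays, when 23.7% of all genes were, and the median of the list moved from -0.06 to 0.04. Fibroblast and smooth muscle markers were called in 0 of 10 in limma, with 0 at an unadjusted p under 0.05, and 1 was called lower without the discordant arrays. Heart markers were called in 0 of 12, the median was -0.11, and in limma 0 of them had an unadjusted p under 0.05. With the discordant arrays left out, 4 of the 12 were called lower and 0 higher, against 23.7% of all genes called lower, with a median of -0.35. These were Pln, Actc1, Ryr2 and Tnnt2, which fell by 0.92, 0.57, 0.36 and 0.35. The part of a varying share of heart tissue in the other differences was not tested. Red blood cell, fat and thymus markers were called in 0 of the 1, 2 and 1 that could be tested, and the thymus marker Cd1d1 fell by 0.50 when those arrays were left out.

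The largest falls among called genes were in genes of varied function. Cckar read 6.47, 11.20 and 11.54 in unventilated and 6.06, 7.30 and 11.20 in ventilated lungs and fell by 2.94 on the log2 scale (adjusted p = 0.0343), and by 4.16 without the discordant arrays. PBEF+/- replicate 3 read 6.47 and VALI replicate 4 read 11.20, each inside the range of the opposite side, and the other arrays of the sides were separated by over 3 log2 units. Dcdc2a fell by 2.86, the kinesin Kif26b by 2.36, the Myc family factor Mycl by 2.05 and the intraflagellar transport protein Wdr19 by 1.97. The mesenchymal ligand Wnt2 fell by 1.999. Rnf186, the retinoic acid receptor Rarb, Sox11, the ciliary anchoring protein Akap14, the claudin Cldn8 and Gabrp completed the 12 largest falls of called genes, between 1.96 and 1.78. Some genes that were not called had larger negative differences than these. Dcdc2a, Mycl, Wdr19, Rarb, Akap14 and Cldn8 were above the array median in fewer than 3 ventilated arrays. They passed the filter on low values through their high unventilated values. Shh, the hedgehog ligand of lung epithelium, fell by 0.81 with the smallest p of all genes lower (adjusted p = 0.0193). The list of retinoic acid, Wnt, BMP and Notch regulators as a whole was called in 1 of 18, Rarb, which is close to the share over all genes. Without the discordant arrays 1 was called higher and 5 lower, against 13.4% and 23.7% of all genes.

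Skeletal muscle transcripts set some arrays apart. Acta1, skeletal muscle actin, read 4.61, 4.63, 4.69 and 4.65 in Control and 4.69, 4.72 and 9.41 in PBEF+/-. It read 15.15, 9.40, 8.85 and 15.83 in VALI and 9.55, 11.90 and 8.63 in VILI PBEF+/-. Acta1 rose by 5.99 ± 1.24 (adjusted p = 0.0232) and by 6.01 without the discordant arrays, since VALI replicate 4 was the highest of all arrays and PBEF+/- replicate 3 the only unventilated array above 4.72. The other 4 tested skeletal muscle markers, Ckm, Tnni2, Tnnt3 and Mylpf, were not called. Tnni2, fast troponin I, read 12.23 in VALI replicate 1, 13.20 in VALI replicate 4 and 6.52 in VILI PBEF+/- replicate 2, against 2.45 to 3.60 in the other 11 arrays. Acta1 was thus 8.63 to 9.55 in 4 ventilated arrays in which Tnni2 was at the level of the unventilated arrays. Myh2, a further marker of this tissue, was below the array median in all 14 arrays.

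Genes that separate the sides with no overlap hold for every array as labelled, the discordant ones included. There were 44 such genes, 0.387% of those tested, 21 higher and 23 lower, and limma called 16 and 22 of them. The widest differences among the higher were Saa3, Dsc2, S100a14, Lcn2 and Slpi. Lcn2, an iron-binding lipocalin of neutrophils and injured epithelium, read 10.60, 12.29 and 13.29 in unventilated and 13.38, 13.74 and 14.71 in ventilated lungs and rose by 1.47 ± 0.36 (adjusted p = 0.032), and by 1.70 without the discordant arrays. Slpi, the antiprotease of airway secretions, read 9.69, 10.58 and 10.96 against 11.07, 11.32 and 12.95 and rose by 1.28 ± 0.29 (adjusted p = 0.0272), and by 1.34 without them. VALI replicate 4 read 13.78 for Lcn2 and 12.18 for Slpi, above the median of the ventilated side in both.

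Dsc2, a desmosomal cadherin, and S100a14 rose by 1.73 ± 0.47 and 1.50 ± 0.34 (adjusted p = 0.0399 and 0.028). Their highest arrays were VALI replicate 1, at 8.90 and 8.21, and VALI replicate 4, at 7.33 and 7.67, the arrays that were also highest in Tnni2. The other 5 ventilated arrays lay at 5.85 to 6.35 for Dsc2 and 6.02 to 6.55 for S100a14, and the part of other tissue in these values was not tested. Elovl7, a fatty acid elongase, rose by 0.82 ± 0.14 and Gpr85 by 0.79 ± 0.22 with no overlap.

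Among the lower genes with no overlap, Rflnb, refilin B, which organises actin filaments, read 9.46, 9.74 and 10.41 in unventilated and 8.79, 8.94 and 9.30 in ventilated lungs and fell by 0.82 on the log2 scale (adjusted p = 0.0193), and by 0.91 without the discordant arrays. Icam2, a constitutive endothelial adhesion molecule, fell by 0.37 and the tetraspanin Tspan2 by 0.44 (adjusted p = 0.0205 and 0.0211). Colgalt2 fell by 0.76, Gm11627 by 0.66, Fam222b by 0.58, Fam162b by 0.51 and Lekr1 by 0.42. The called genes that the naming rule picked had 111 further probe sets, of which 7 had the opposite sign. Of the 75 that were above the array median in at least 3 arrays, 1 did, a second probe set of Fam222b, and the other 6 (of Lpcat1, Mycl, Shh, Atf4, Dcdc2a and Fam222b) were dimmer and differed by less than 0.1.

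The discordant arrays could be placed with genes called in a fit that did not use them. For each array, the genes were those called and changed at least 2-fold without VALI replicate 4, without PBEF+/- replicate 3 and without that array. Its position was 0 at the mean of the other unventilated and 1 at the mean of the other ventilated arrays. Over 405 genes higher and 358 genes lower with ventilation, the median position of VALI replicate 4 was 0.10 and 0.0022, and it was nearer to the ventilated mean in 57 and 13 of them. PBEF+/- replicate 3 had medians of 0.98 and 1.01 and was nearer to the ventilated mean in 392 and 348. The 6 other unventilated arrays had medians from -0.15 to 0.15 and the 6 other ventilated arrays from 0.72 to 1.22. Both arrays thus lay with the side opposite to their labels in most of the genes, although single genes did not follow.

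**Figure D5:**
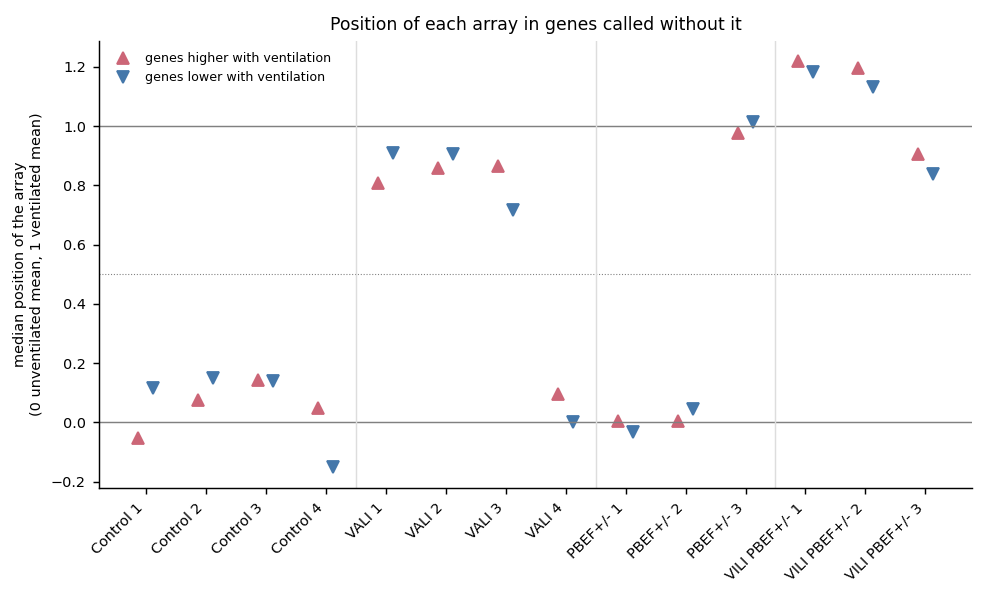
For each array, triangles give its median position between the means of the other unventilated (0) and ventilated (1) arrays, over genes changed at least 2-fold that were called without it, higher with ventilation (red) and lower (blue). VALI replicate 4 lies at 0.10 and 0.0022 among the unventilated arrays, and PBEF+/- replicate 3 lies at 0.98 and 1.01 among the ventilated arrays.

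In VALI replicate 4, position differed between gene groups. It was 0.06 for Il6, 0.06 for Hmox1, 0.0077 for Slc7a11, -0.03 for Mmp8 and -0.31 for S100a8. By contrast it was 0.38 for Cxcl1, 0.40 for Cxcl2, 0.53 for Il1r2, 0.68 for Tgm1, 0.68 for Egr1 and 0.73 for Cxcl3. It was 0.85 for Saa3, 0.97 for Lcn2, 1.42 for Slpi and 1.89 for Acta1. The median over called members was 0.09 for the NRF2 list (8 genes), 0.0063 for the ATF4 list (7 genes) and -0.07 for neutrophil markers (10 genes), and it was 0.28 for NF-kB targets (11 genes) and 0.35 for ribosome biogenesis (15 genes). In PBEF+/- replicate 3 the position was 0.47 for Slpi, 0.56 for Saa3 and 0.67 for Lcn2, and it was 1.01 for Il6, 0.99 for Hmox1 and 1.24 for Egr1. Saa3, Lcn2 and Slpi were in both arrays nearer to the side of the label than Il6 was. They come from the genes that separate the labelled sides fully, so this was largely set by the choice and is no separate result. These genes were picked after their values were seen, and their differences were not tested.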

How the data were processed

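Total RNA of lung was measured on 14 Affymetrix mouse arrays, each with biotin-labelled cRNA made from 6 µg RNA, per the labels' protocols. The deposited values are log2 probe set levels for 45101 probe sets. MAS5 and GCRMA appear in the submitters' processing notes with no version or role, so how the authors normalised the log2 values is not given in the sources used here. Values ran from 0.446 to 16.1, array medians from 4.60 to 4.75, and none was missing. The number of arrays limits the precision.

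Names came from the platform annotation: 34958 probe sets had 1 symbol, 932 several and 9211 none. Each gene was represented by its probe set of highest mean, and 11360 of 18194 genes were tested, those above the array median in at least 3 of 14 arrays. limma 3.58.1 (R 4.3.3) fitted ventilation and the PBEF+/- label with trended empirical Bayes variances. P-values are two-sided and adjusted by Benjamini-Hochberg over all genes tested, and errors of log2 differences are model standard errors. The fit was tested on simulated data.

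The comparison and the 44 gene lists (489 genes, 421 tested) were chosen with earlier results of these data known. They cover the pathways and cell types plotted, and markers of red blood cells, fat and thymus. Named genes are Nampt and Il6, the 12 largest rises and falls among called genes, and the 5 smallest p in each direction. To these come 8 genes per direction without overlap, and up to 4 of each list with the smallest p. Cxcl3, Ccl2, Ccl3, Ccl7, Hp, Klf4, Thbd, S100a8, Myh6, Ckm, Ryr2 and Tnnt2 were named after their values were seen. Sex was read as Xist above Eif2s3y, in place of Ddx3y, which no probe set used here names alone. Replicate numbers did not pair the arrays, with correlations of same-numbered arrays from -0.35 to 0.32. Promoter windows of 9188 tested genes came from RefSeq. Figures were drawn with matplotlib 3.10.9.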

Additional observations from a re-analysis of the deposited data

Results flagged for a closer look

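In the groups of 4 arrays, Dixon's ratio, the gap of an extreme array to its neighbour over the range of the group, was above the critical value of 0.829 in 50 of 288 cases, 11 of 144 genes in Control and 39 of 144 in VALI. Chance alone passes this value in about 1 in 20 groups. The genes were picked from these same data and are not independent cases, so this rate is only a rough guide. VALI replicate 4 was the extreme array in 33 of the 39 in VALI.

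VALI replicate 4 was far below the other VALI arrays in cytokine and receptor genes, with ratios of 0.966 for Il6, 0.941 for Il1b, 0.915 for Il1r2, 0.89 for Socs3 and 0.939 for Fgl2. It was low in Ereg (0.903), Plaur (0.928), F3 (0.831), Cldn4 (0.872), Adamts4 (0.842), Has1 (0.942), Timp1 (0.843) and Doc2b (0.944). It was low in the metal genes Mt2 (0.945), Mt1 (0.916) and Slc39a14 (0.856), and in the neutrophil markers Clec4e (0.864), Csf3r (0.865) and S100a8 (0.883). Ratios in growth genes were 0.972 for Atf4, 0.906 for Wdr43, 0.877 for Snhg1, 0.864 for Snhg5 and 0.839 for Riok2, and Xist had 0.961.

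The same array was far above the other VALI arrays in genes that were lower with ventilation. The ratios were 0.905 for Cckar, 0.925 for Dcdc2a, 0.92 for Wdr19, 0.993 for Rarb, 0.962 for Cldn8, 0.934 for Gabrp and 0.955 for Rflnb. The Y-linked Eif2s3y had 0.987.

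Other VALI arrays stood apart in 6 genes. VALI replicate 3 was high in Lcn2 (0.843), Itgb8 (0.885) and Gpr85 (0.895), VALI replicate 1 was low in Fos (0.895) and Dnah5 (0.834), and VALI replicate 2 was low in Sox11 (0.913).

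In Control, replicate 1 was low in Fgl2 (0.883), F10 (0.894), Timp1 (0.894), Bst1 (0.849), S100a8 (0.853) and Selp (0.95) and high in Hspa1b (0.938). Control replicate 2 was low in Psat1 (0.865), Control replicate 3 was high in Mmp8 (0.853) and low in the heart troponin Tnnt2 (0.914), and Control replicate 4 was high in Il6 (0.836), at 2.45 against 2.09 to 2.15. This Il6 value and the Mmp8 value, 3.41 against 2.91 to 2.98, lay below all array medians, where small differences carry little meaning.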

How the results depend on the processing

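The count of genes called for ventilation, 1063 as labelled, was 266 with no filter on low values, 5170 with array quality weights, 88 with no second factor and 221 with the sex pattern as a covariate. It was 27 with arrays not labelled PBEF+/- alone, and 0 with arrays labelled PBEF+/- alone (1477 at an unadjusted p under 0.05 in limma) or with animals of 18-22 weeks alone (1844). Leaving out single arrays gave 0 to 2832. Without VALI replicate 4 and PBEF+/- replicate 3 it was 4213. In alternatives added after seeing the data it was 2759 without those arrays and with the sex pattern, 3975 without them in arrays of the female pattern alone, and 1743 without them in animals of 18-22 weeks. The fit with a replicate block called 1162 genes, 923 of them among the 1063, although the replicate numbers do not pair the arrays. Stricter filter, mean of probe sets, quantile normalization, median centring, no variance trend, robust moderation, 4 group means and arrays of the female pattern on all arrays gave 822 to 1090. The 44 genes without overlap became 2314 without both discordant arrays, and 46 to 450 when single arrays were left out. The interaction called 0 genes in all 20 fits run, the fit as labelled and that with the replicate block included, with 418 to 1367 at an unadjusted p under 0.05. No called gene given with values changed direction in any setting. Nampt, which was not called in any setting, changed sign to -0.11 with the sex pattern, to -0.25 among arrays not labelled PBEF+/- and among animals of 18-22 weeks, and to -0.014 without both discordant arrays in animals of 18-22 weeks. Leaving out single arrays gave Nampt differences from -0.078 to 0.22. Ryr2, not called as labelled, changed sign to 0.020 with the sex pattern. The causes of these shifts were not tested. Some settings also used fewer arrays, and the part of that was not tested either.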
